A study of Mus musculus with 2 samples.

Results

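The genes described here encode the proximal signalling machinery of the T cell receptor, from the CD3 chains to the NFAT transcription factors. The list holds 41 genes, found on the array by their symbols. Of these, 40 had a row on the array, 39 were above background on both arrays and Syk was above background on neither. Lck was not analysed here. They stand among 14494 genes above background on at least 1 array, and 30142 with a row naming their symbol alone. The 40 genes had 41 rows (Cbl had 2), and none of those rows named a second symbol.

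RNA came from Vγ6 γδ T cells, which carry a receptor built with the Vγ6 chain and leave the thymus around birth. They had been sorted by flow cytometry from thymi of C57BL/6 mice on day 0 of life. One group was wild type (WT) and the other, MHC class II KO (hereafter KO), had no MHC class II, the surface molecules whose peptides CD4 T cells read. Each group was 1 sample on 1 GeneChip array, so 2 arrays were compared and no difference below has a replicate, an error or a test. It is not stated in the labels which of the class II genes had been disrupted, whether animals were pooled, or which antibodies were used for the sort. A difference below is always KO minus WT in log2 signal, and it describes these 2 arrays.

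When a T cell receptor binds its ligand, a Src family kinase phosphorylates the CD3 chains, and ZAP-70 docks on them and phosphorylates the scaffolds LAT and SLP-76. These scaffolds recruit phospholipase C and exchange factors, which open the calcium, Ras and protein kinase C branches. Phosphatases, the kinase CSK, ubiquitin ligases, inhibitory co-receptors and diacylglycerol kinases restrain the same steps. In the thymus the strength of this signal bears on which γδ T cells take up an interleukin 17 or an interferon gamma fate. Here 24 genes were grouped as activators and 14 as inhibitors. The other 3, Ptprc, Themis and Cd6, are known in both roles and are given apart.

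Background was set at the level that 95% of 1228 olfactory receptor rows stayed under, a log2 signal of 5.94 for WT and 5.86 for KO. By this measure 25902 of 65956 rows were above background on the WT array and 26004 on the KO array. Tcrg-V6, which encodes the Vγ6 chain, had log2 signals of 12.64 (WT) and 12.33 (KO). The class II gene H2-Ab1 had 7.68 and 6.67, and where its probes lie relative to the disruption is not known. The female-specific RNA Xist had 15.35 and 14.79, a difference of -0.56. The Y-linked gene Kdm5d had 7.40 and 8.15, a difference of 0.75. Uty and Eif2s3y, also Y-linked, were above background on both arrays too. Signals of both sexes were thus present in each sample. The part of their balance in the values below was not tested.

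The signalling genes were, for the most part, slightly higher on the KO array. The genes furthest up were the inhibitors Ptpn6 and Sit1 and the activator Trat1, and the one furthest down was the inhibitor Ptpn22. At least 1.5-fold higher were 6 of the 39 genes above background, 15.4% of them, where 3.74% of all genes above background were. None was at least 1.5-fold lower, where 2.66% of all genes were. Of the 14 inhibitors 4 were past this fold (Ptpn6, Sit1, Ubash3b and Cd5), and of the 22 activators above background 1 was (Trat1). The remaining one was Themis, from the group with both roles. Only Ptpn6 reached 2-fold, and with the differences centred, quantile normalized or loess corrected it fell just short (0.97, 0.99 and 0.95 on the log2 scale). A difference of 2-fold or more was seen in 0.738% of all genes in the higher and in 0.807% in the lower direction.

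Looked at by direction, 32 of the 39 differences were above 0 (82.1%), against 56.4% over all genes. The median difference was 0.21 for the 39 genes and 0.04 for all genes. To gauge disagreement between rows, the differences of 2 rows were compared in the 160 genes that had 2 or more distinct ones above background. Their gap had an SD of 0.24, which holds no spread between samples. The robust SD of the difference over all genes was 0.25. Of the 39 genes, 23 lay within this robust SD of the median of all genes (59.0%, against 65.6% of all genes). That SD is taken from these same differences over all genes, so most genes lie within it by construction. It also holds any real difference between the groups and is no measure of error.

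**Figure D1:**
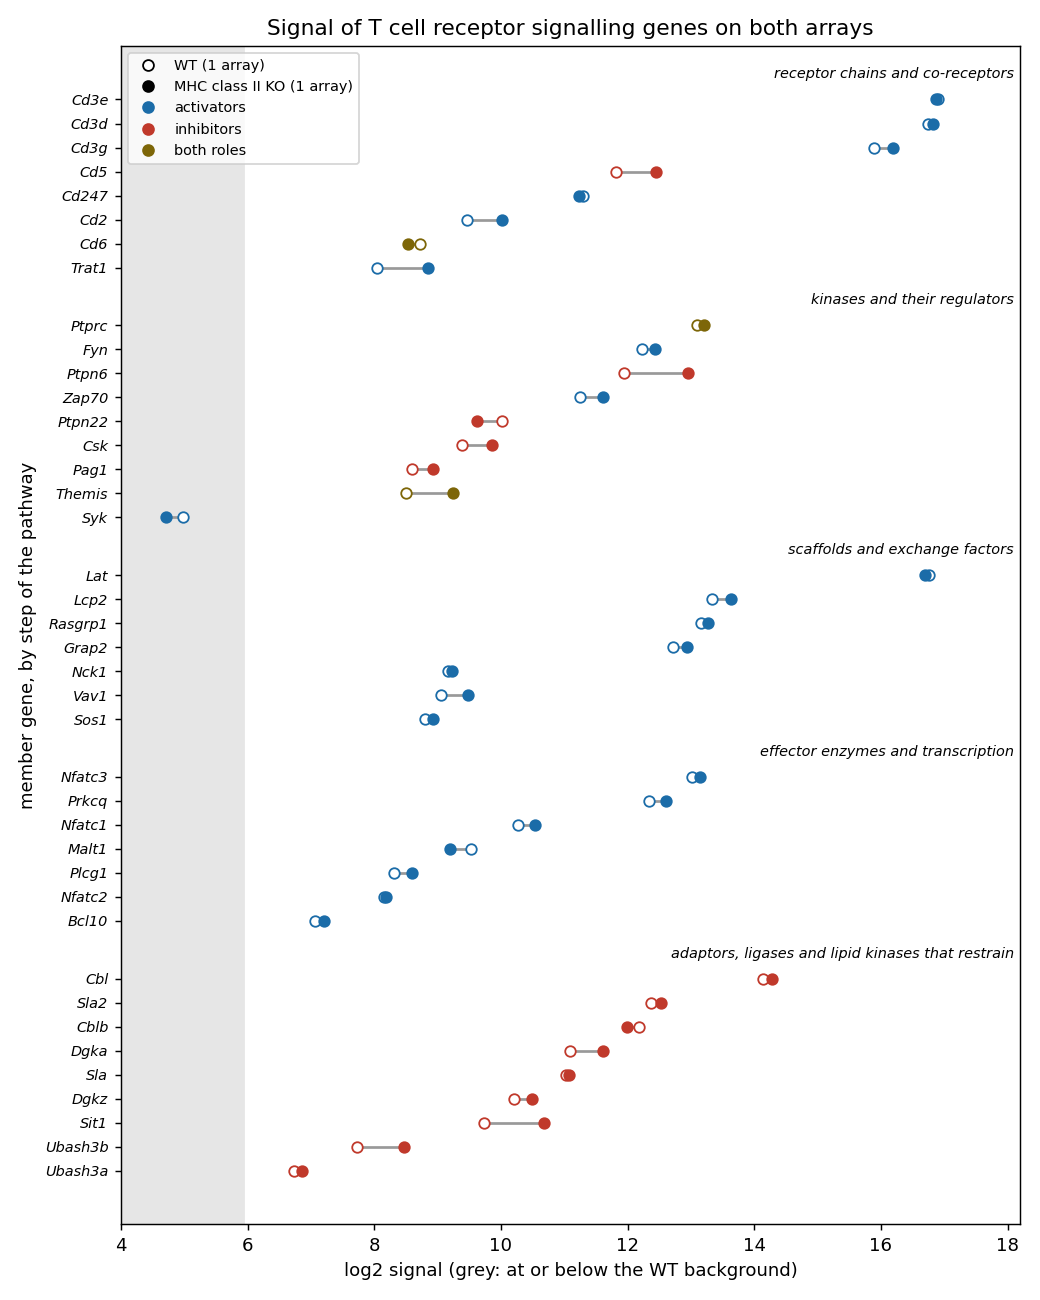
Log2 signal of the 40 genes with a row, on the WT array (open circles) and the KO array (filled circles), grouped by step of the pathway; blue marks activators, red inhibitors and ochre genes with both roles. Syk lies in the grey zone at or below background, and Ptpn6, Sit1 and Trat1 have the widest gaps between open and filled circles.

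The receptor's own signalling chains had differences close to the median of all genes, apart from Cd3g. Cd3e had log2 signals of 16.90 (WT) and 16.87 (KO), and Cd3d had 16.74 and 16.82. Cd247, which encodes the ζ chain with its several phosphorylation motifs, had 11.29 and 11.24. Cd3g, the γ chain of CD3, stood a little apart from these with 15.89 and 16.19, a difference of 0.30. Its gap to Cd3e was 0.34. For scale, the gap between rows of 1 gene had an SD of 0.24. That SD holds no spread between samples and does not decide whether a gap between different genes is unusual. The median of the 4 chains was 0.02, under that of all genes, and the difference of Cd3e (-0.04) turned positive under one of the scalings. Signals of Cd3e, Cd3d and Lat exceeded 65535, the ceiling of a 16-bit scanner, on both arrays. Cd3g crossed it on the KO array alone, with 60634 for WT and 74809 for KO, so its difference and its gap to Cd3e span that value. The deposited scale is thus no plain scanner reading, and what this does to the differences of the brightest genes was not tested.

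The co-receptors and receptor partners spread more widely. Trat1, which encodes the adaptor TRIM that associates with the receptor complex, went from 8.05 to 8.84, a difference of 0.79. Cd2, an adhesion receptor that aids activation, went from 9.47 to 10.02, and its difference of 0.55 was just short of 1.5-fold. Cd5, an inhibitory receptor whose level in thymocytes follows the strength of receptor signalling, went from 11.82 to 12.45, a difference of 0.63. Cd6, its relative, which has been described in both activating and inhibitory roles, went the other way, from 8.72 to 8.54. The differences of Cd5 and Cd6 lay 0.81 apart, the widest gap among the 9 pairs of related or partner genes that were set side by side.

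Of the activating kinases at the receptor, Zap70 and Fyn were above background. Neither was 1.5-fold apart, but only 3.74% of all genes were higher and 2.66% lower by as much. Zap70, the kinase that docks on phosphorylated CD3 chains, had log2 signals of 11.24 and 11.61, a difference of 0.37. Fyn, a Src family kinase, had 12.22 and 12.43, and its difference of 0.21 lay within the robust SD of the median of all genes. Syk, the relative of Zap70 that B cells and some early thymocytes use, had 4.97 and 4.72, not above background on either array, and so has no fold.

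The genes that hold these kinases in check pointed in both directions. Ptpn6, which encodes the phosphatase SHP-1, had signals of 3933 (WT) and 7922 (KO), or 11.94 and 12.95 on the log2 scale. Its difference of 1.01 was the highest of the 39, and 0.793% of all genes above background were at least as high. Csk, the kinase that places the inhibitory phosphate on Src family kinases, had 9.39 and 9.85. Pag1, the membrane adaptor that brings CSK to them, had 8.59 and 8.92. Csk and Pag1 thus both lay above the median of all genes, with differences of 0.47 and 0.34. Ptpn22, another phosphatase of LCK and ZAP-70 that works with CSK, had 10.02 and 9.62, and its difference of -0.39 was the lowest of the 39. No common direction therefore held for the phosphatases.

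The genes with both roles at this step differed from one another. Ptprc, the phosphatase CD45, which both activates Src family kinases and can restrain them, had 13.10 and 13.20. Themis, a partner of SHP-1 needed for αβ thymocytes to pass selection, had 8.50 and 9.24, a difference of 0.74. Ptprc was close to the median of all genes and Themis was past 1.5-fold.

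The scaffolds and exchange factors that relay the signal had differences between -0.07 and 0.42. Lat had 16.76 and 16.69, and its cytosolic partner Lcp2, the gene for SLP-76, had 13.33 and 13.63. Grap2, the bridge between LAT and SLP-76, had 12.72 and 12.94. Vav1, an exchange factor for Rac, had 9.05 and 9.47, and its difference of 0.42 was the largest of the 7 genes at this step. The Ras exchange factors Rasgrp1 and Sos1 differed by 0.11 and 0.14, and the adaptor gene Nck1 by 0.07, which fell under 0 in one of the alternatives. None of the 7 was 1.5-fold apart, but only 3.74% of all genes were higher and 2.66% lower by as much. Their median was 0.14, against 0.04 for all genes.

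Downstream enzymes and transcription factors had differences between -0.32 and 0.28. Plcg1, which cleaves the membrane lipid that gives calcium release and diacylglycerol, had 8.31 and 8.59. Prkcq, the diacylglycerol-sensitive kinase PKC-θ, had 12.33 and 12.61. The partners Malt1 and Bcl10, which link PKC-θ to NF-κB, differed in opposite directions. Malt1, a protease, had 9.52 and 9.20, and Bcl10 had 7.07 and 7.21, so their differences of -0.32 and 0.14 were 0.46 apart. The NFAT genes, whose proteins enter the nucleus after calcium release, had differences of 0.27 for Nfatc1, 0.03 for Nfatc2 and 0.12 for Nfatc3, and that of Nfatc2 changed sign with the scaling. The median of the 7 genes at this step was 0.14, against 0.04 for all genes. None was 1.5-fold apart, which also held for most genes above background.

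The adaptors, ligases and lipid kinases that restrain the receptor held further genes past 1.5-fold. Sit1, a transmembrane adaptor that interacts with phosphatases and dampens receptor signals, had signals of 846 and 1640, or 9.72 and 10.68 on the log2 scale. Its difference of 0.95 was second only to that of Ptpn6, and 0.918% of all genes were at least as high. Ubash3b, which encodes the phosphatase STS-1, had 7.72 and 8.48, a difference of 0.75. Its paralogue Ubash3a, by contrast, had 6.74 and 6.86, near the background, and the differences of the pair were 0.63 apart.

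Diacylglycerol kinases, which remove the lipid that activates Ras and PKC-θ, were both above the median of all genes. Dgka had 11.09 and 11.62, a difference of 0.53, and Dgkz had 10.21 and 10.49, a difference of 0.28. The adaptors Sla and Sla2, which promote the breakdown of the receptor complex, differed by 0.05 and 0.14, that of Sla changing sign with the scaling. Of the ubiquitin ligase genes, Cblb had 12.17 and 11.99, and Cbl had 14.13 and 14.29 by its brighter row. The dimmer row of Cbl had 14.10 and 13.75, a difference of -0.34 against 0.15 for the brighter one, so the direction of Cbl is not settled by these arrays.

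**Figure D2:**
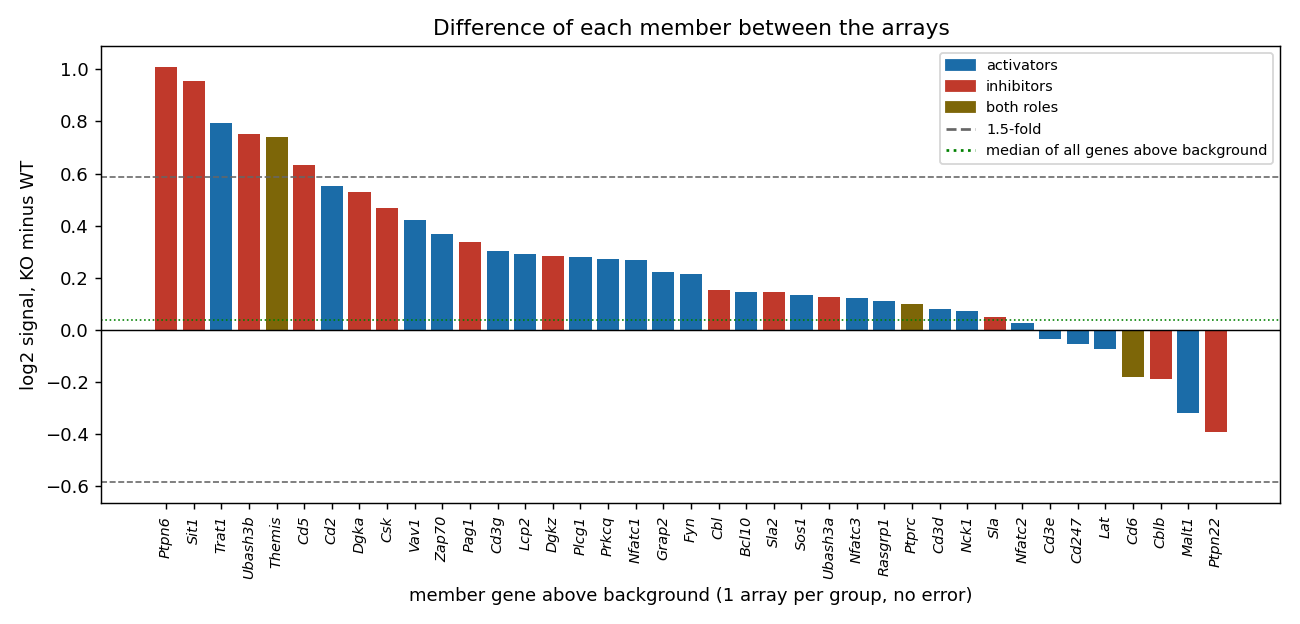
Difference in log2 signal, KO minus WT, of the 39 genes above background in falling order, with bars coloured by role; dashed lines mark 1.5-fold and the dotted line the median of all genes above background, 0.04. The 6 bars above the upper dashed line are Ptpn6, Sit1, Trat1, Ubash3b, Themis and Cd5, and no bar reaches the lower one.

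Activators and inhibitors were then compared as groups. The 22 activators had a median difference of 0.18, with a range from -0.32 (Malt1) to 0.79 (Trat1), and 18 of them were above 0. The 14 inhibitors had a median of 0.31, with a range from -0.39 (Ptpn22) to 1.01 (Ptpn6), and 12 were above 0. The median of the activators was thus 0.13 lower than that of the inhibitors. The ranges overlapped over most of their length. At 1.5-fold the shares were 28.6% of inhibitors and 4.55% of activators, against 3.74% of all genes, so the activators' share is near the background. Roles were assigned with earlier results of these data known, and after loess correction 3 inhibitors were past this fold. Counting Ptprc and Themis with the activators and Cd6 with the inhibitors left 4 inhibitors past this fold and gave 2 activators. Trat1 stayed an activator in both groupings, and no other role was tried for it. With 1 array per group the difference between the groups cannot be tested.

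By level, the activators had median log2 signals of 11.27 (WT) and 11.42 (KO). The inhibitors had medians of 10.62 and 10.88. The gap between the groups in log2 signal was therefore 0.65 for WT and 0.55 for KO. Probes of different genes differ in brightness for the same amount of RNA, so this gap does not order the transcripts. Its change between the arrays has no settled direction, since with background at the 99th percentile the gap was 0.24 for WT and 0.35 for KO. Within the 39 genes, the 20 dimmer ones had a median difference of 0.27 with 4 past 1.5-fold, and the 19 brighter ones had a median of 0.15 with 2. The 39 points share both arrays and their scaling.

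**Figure D3:**
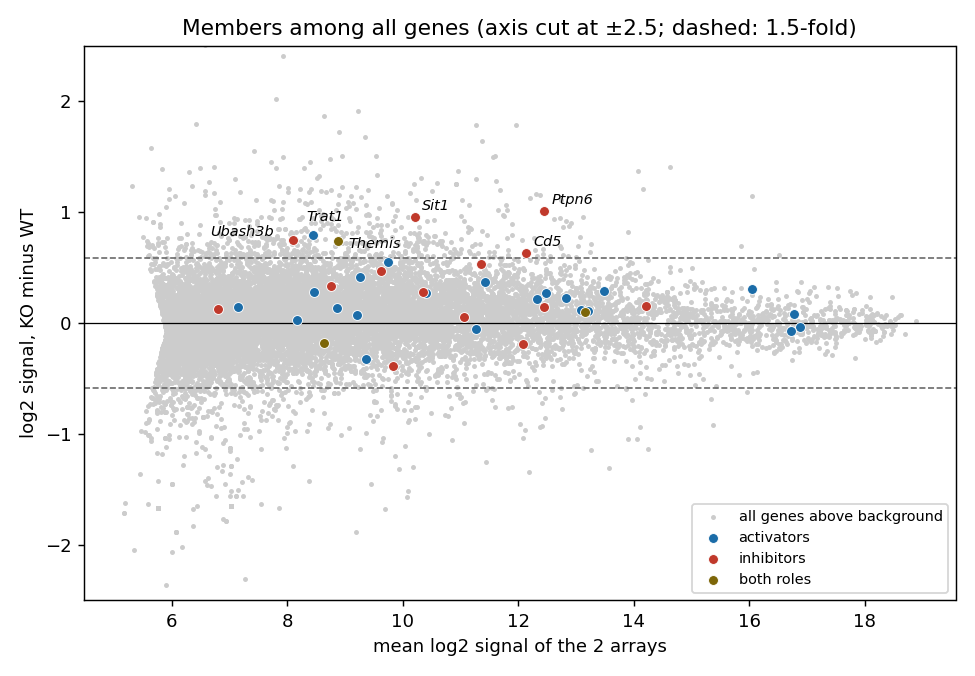
Difference in log2 signal, KO minus WT, against the mean log2 signal of the 2 arrays, for all genes above background (grey) and the 39 signalling genes (coloured by role); the vertical axis is cut at 2.5 in each direction. The 6 labelled genes lie above the upper dashed line of 1.5-fold, at mean signals from about 8 to over 12, and the coloured points lie mostly above 0.

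The 4 genes just under the threshold, with differences of at least 0.4, were Cd2, Dgka, Csk and Vav1. They comprised 2 activators and 2 inhibitors. Cd5 was the closest above it, at 1.55-fold, and it was no longer past 1.5-fold after a loess correction, at 0.57.

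The starts of 4 of the 6 genes past 1.5-fold are shown because each of these has a single start in the RefSeq promoter table (build GRCm38.p6), which held entries for 35 of the 41 genes. Each run is the 150 bases before the listed start, 5′ to 3′ on the gene's own strand. Ptpn6 (gene identifier 15170) lies at chr6:124738710-124738859, Sit1 (54390) at chr4:43483710-43483859, Trat1 (77647) at chr16:48772063-48772212 and Cd5 (12507) at chr19:10738975-10739124, all on the minus strand. Capitals mark matches, on either strand, to 3 short motifs of factor families known in T cells: AGGAAG for ETS factors, TGTGGT for RUNX factors and CAGGTG, an E-box, for E proteins. No 2 matches overlap in these runs.
Ptpn6: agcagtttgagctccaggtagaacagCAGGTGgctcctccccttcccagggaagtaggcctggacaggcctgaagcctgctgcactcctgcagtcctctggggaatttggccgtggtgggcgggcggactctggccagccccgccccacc
Sit1: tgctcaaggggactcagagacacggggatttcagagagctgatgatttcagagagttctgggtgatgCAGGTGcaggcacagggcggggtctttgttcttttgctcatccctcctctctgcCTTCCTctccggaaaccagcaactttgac
Trat1: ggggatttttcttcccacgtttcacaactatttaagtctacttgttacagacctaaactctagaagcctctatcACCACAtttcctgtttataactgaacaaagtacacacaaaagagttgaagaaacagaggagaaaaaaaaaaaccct
Cd5: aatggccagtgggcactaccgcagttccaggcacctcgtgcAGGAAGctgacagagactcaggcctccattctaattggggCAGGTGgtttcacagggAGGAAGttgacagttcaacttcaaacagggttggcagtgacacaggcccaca

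The E-box letters occur in the runs of Ptpn6, Sit1 and Cd5, and not in that of Trat1. The ETS letters occur in the run of Sit1 and at 2 places in that of Cd5, and the RUNX letters in that of Trat1. The run of Trat1 is 36.0% G and C and that of Ptpn6 66.0%, so their base composition is far apart. Over all 35 signalling genes in the table, with any of their starts counted, the ETS letters occurred in 17 (48.6%), against 22.0% of 27025 genes. The E-box letters occurred in 12 (34.3%), against 12.2%, and the RUNX letters in 5 (14.3%), against 9.73%. Genes with more listed starts have more chances of a match, and the shares were not adjusted for this. The 27025 genes were not limited to those above background here. These are matches of letters in the genome sequence, a description that holds for both groups of mice, and not sites shown to be bound.

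Other genes of T cell receptor signalling outside the 41 were summarised in the same way. Of 42 further activating genes above background, out of 55 listed, none was 1.5-fold apart in either direction. Over all genes, 3.74% were higher and 2.66% lower by as much. The median of the 42 was 0.09. The highest were Mapk14, the gene for p38α (0.37), Map2k1 (0.33) and Rac1 (0.32). The lowest were the Tec family kinase gene Txk (-0.33), the ligase gene Traf6 (-0.32) and the Raf kinase gene Braf (-0.29).

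Of 26 further inhibitory genes above background, out of 30 listed, 1 was higher and 3 were lower by 1.5-fold or more. Over all genes, 3.74% were higher and 2.66% lower by as much. The median of the 26 was 0.04. That median fell under 0 when differences were centred or loess corrected. Ptpn7, a phosphatase that acts on ERK and p38, was higher by 0.82. After it came Rasa3, which switches Ras and Rap off (0.45), and the ERK phosphatase gene Dusp6 (0.44). The 3 lower genes were Ctla4 (-3.46), an inhibitory receptor, Cish (-0.87), a cytokine-induced inhibitor, and Tnfaip3 (-0.77), which restrains NF-κB. The inhibitors among the 41 genes and those on this further list therefore pointed in different directions at the extremes, and that difference was not tested.

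**Figure D4:**
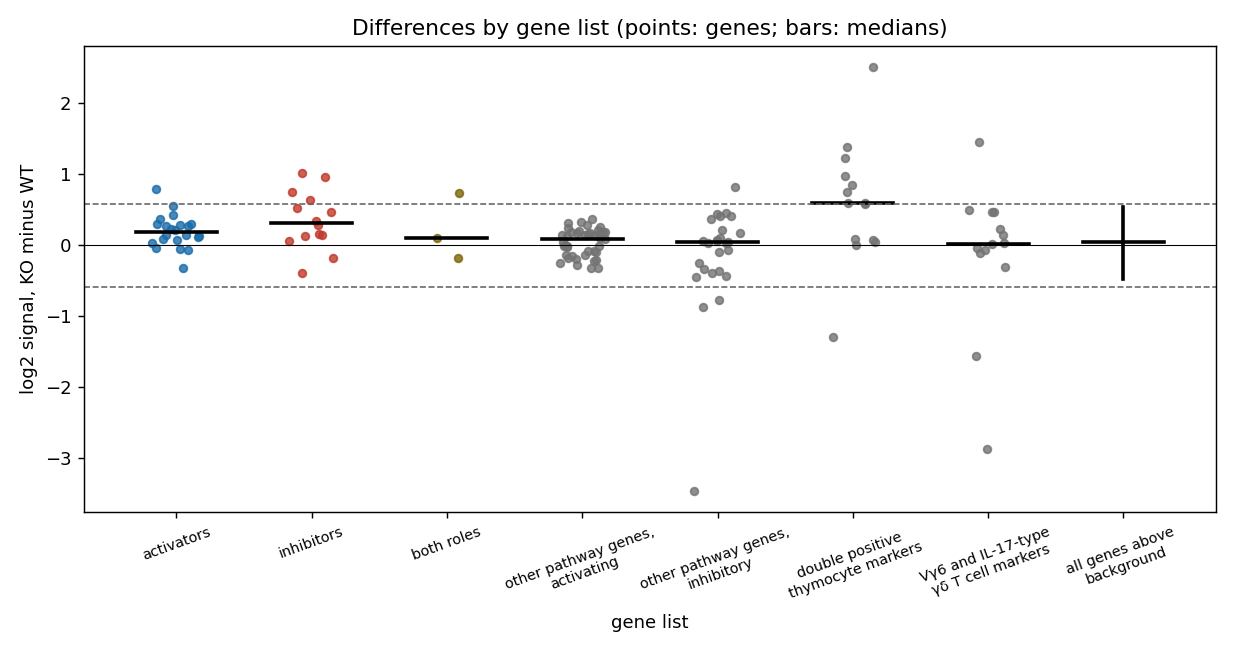
Difference in log2 signal, KO minus WT, of genes above background in 7 lists (points, spread sideways at random for visibility), with horizontal bars at the medians; the vertical line over all genes above background spans their 5th to 95th percentile, and dashed lines mark 1.5-fold. The lists are the activators, the inhibitors, the genes with both roles, the further activating and inhibitory genes, and the markers of double positive thymocytes and of Vγ6 and IL-17-type γδ T cells; among these 7 the thymocyte markers have the highest median, 0.59, and the inhibitors the next, 0.31.

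Markers of other cells moved in the same comparison. Of 15 markers of double positive αβ thymocytes with a row, 14 were above background on at least 1 array and 12 on both. Their summed signal was 20255 for WT and 40600 for KO, and their median difference was 0.59. Most of the gap between these sums lay with Cd8b1, without which they were 9622 and 12998, with a median difference of 0.59. By 1.5-fold or more, 7 of them were higher and 1 was lower, where 3.74% and 2.66% of all genes were. Dntt passed background only on the KO array, with a bound of at least 3.68-fold higher, while Cd8b1 differed by 1.38 and Ccr9 by -1.29. Rag2, needed for receptor gene rearrangement, was above background on neither array. Cd5, Cd2 and Themis are themselves expressed by such thymocytes. In a bulk sample, a larger share of these thymocytes and more RNA per Vγ6 cell cannot be told apart. This holds for any member that such thymocytes express, not only for those named. The part of these cells in the differences of the signalling genes was not tested.

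The summed signal of the 39 signalling genes was 512050 for WT and 543480 for KO. Of this sum, 403700 and 415670 came from Cd3e, Cd3d, Cd3g and Lat, and the other 35 genes summed to 108350 and 127800. Markers of Vγ6 and IL-17-type γδ T cells, all 14 with a row above background, had summed signals of 225350 and 235400 and a median difference of 0.02. Their extremes were Il17f (-2.88), Il17a (-1.57) and Ccr6 (1.46).

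Of 10 B cell markers with a row, 2 were above background, Ighm (1.41) and Cd79b (0.11), with summed signals of 16642 and 42392. Most of both sums came from Ighm, with log2 signals of 13.93 (WT) and 15.33 (KO), against 10.08 and 10.19 for Cd79b. Cd79a, Ms4a1, Pax5 and Ebf1, which define B cells, were above background on neither array. Of 14 myeloid and dendritic cell markers with a row, 6 were above background, with summed signals of 737 and 1230. Irf8 (1.11) and Cd68 (0.91) led them, Lyz2 passed background only on the KO array (at least 1.23-fold higher), and Csf1r and Adgre1 passed it on neither. SHP-1, the product of Ptpn6, is also abundant in B and myeloid cells, and the part of such cells in its difference was not tested.

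The other lists were dim or close to even. Of 8 NK and innate lymphoid cell markers 4 were above background (summed signals 17138 and 14957), with Rora at -0.37, Gzma at 0.31 and Klrb1c at 0.16. Of 10 thymic epithelial markers 4 were (292 and 258). Krt8 and Epcam passed background only on the WT array, with bounds of at least 1.18-fold and at least 1.17-fold lower. Ly75 passed it only on the KO array, with a bound of at least 1.07-fold higher. Of 8 stromal and blood markers 4 were (959 and 928), with S100a9 at -0.46, S100a8 at -0.33 and Pecam1 at 0.11.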

How the data were processed

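RNA of sorted Vγ6 γδ T cells, 1 sample per genotype, was measured on GeneChip arrays after labelling with a whole-transcript kit, per the labels. The authors deposited 1 intensity per transcript cluster and array, on a linear scale. RMA and Affymetrix Expression Console 1.4.1 are named per the submitters' processing notes, without settings. How values came to pass 65535 is not stated, and that step could stretch or compress every fold.

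Log2 was taken of each intensity. Rows were named through the platform annotation, with symbols updated through RefSeq (GRCm38.p6), and rows naming several symbols or none entered no count of genes. The brightest row stood for a gene. Genes passing the 95th percentile of olfactory receptor rows on at least 1 array were used; for those passing it on 1 array only, the fold is a bound against the other array's background. Thresholds were 1.5-fold and 2-fold, with no test. All 41 members are named, with the 3 highest and 3 lowest genes of each further pathway list and the 3 largest differences of each marker list. Across the lists 31 genes had no row with their symbol alone. Members, roles, lists and settings were chosen with earlier results of these data known. Alternatives covered scaling, background, rows, threshold and roles, and 3 were added after the values were seen (without Themis, the dimmer Cbl row, and sums without their brightest genes). The code was tested on simulated data. Python 3.11.15, pandas 2.3.3 and statsmodels 0.14.6 were used. The number of arrays limits the precision.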

Additional observations from a re-analysis of the deposited data

How the results depend on the processing

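At 2-fold in place of 1.5-fold, 1 member, 0 activators and 1 inhibitor were higher. Of the further inhibitory genes, 0 were higher and 1 was lower. Over all genes above background, 0.738% were higher and 0.807% lower at 2-fold, so such counts say little about these lists. Counting the genes with both roles gave 2 activators past 1.5-fold and gaps in log2 signal between activators and inhibitors of 1.06 (WT) and 0.74 (KO). Those gaps were 1.03 and 0.87 with means in place of medians and 0.24 and 0.35 with background at the 99th percentile, which leaves out dim members and turns the fall of the gap from WT to KO into a rise, and the KO gap was 0.36 with no background filter. The median of the further inhibitory genes was -0.0026 after centring and -0.037 after loess correction, and their mean was -0.15. After centring and quantile normalization 6 members were at least 1.5-fold higher, and after loess correction 5. Of all 14494 genes, these scalings put 449, 511 and 428 higher and 453, 384 and 438 lower by as much. Under the other settings, of background and rows, the count stayed at 6. They could not change the differences of these 6 members, each with 1 row and above background on both arrays. Without Themis the count was 5. In none of these settings was a member 1.5-fold lower. Of 391 recomputed member values 2 moved by 0.1 or more, both of Cbl (-0.096 as the mean of its rows, -0.34 by the dimmer row). Most of the 391 could not move. Background settings leave the difference of a member above background as it is, and row settings could change only Cbl. Centring shifted every difference by the same 0.04. The sign changed for 5 of the 39 genes, all with small differences (Cd3e, Sla, Cbl, Nck1 and Nfatc2). The cause of these changes was not tested except where the setting itself shows it. No paired analysis was possible because each group holds 1 array.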

Other observations

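Genes beside the members on the chromosome were compared with them, taking on each side the nearest gene above background in RefSeq order. Beside the 6 members at least 1.5-fold higher stood 12 such genes, with differences between -0.39 and 0.37. None was 1.5-fold apart, where 3.74% of all genes were higher and 2.66% lower by as much. Ptpn6 (1.01) lay between Phb2 (-0.05), which encodes a mitochondrial scaffold, and Atn1 (0.12). Sit1 (0.95) lay between Cd72 (0.04), the gene for a B cell co-receptor, and the RNA gene Rmrp (-0.07). Ubash3b (0.75) had Crtam (-0.39), an adhesion receptor gene, on one side. Cd5 (0.63) stood next to Cd6 (-0.18), with Vps37c (0.02) on its other side.

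Over all members there were 72 neighbours that are not members themselves. Their median difference was 0.06. By 1.5-fold or more, 1 was higher and none was lower, where 3.74% and 2.66% of all genes were. The higher one was Gpr108 (0.62), beside Vav1 (0.42), and it is named after its value was seen. Cdk2, which drives entry into S phase, stood beside Dgka with a similar difference (0.55 and 0.53). It is named for that likeness, and Pym1 on the other side of Dgka differed by -0.19. Mpzl3 (0.53) stood beside Cd3e (-0.04). Cd3g, Cd3d and Cd3e follow one another on chromosome 9, with differences of 0.30, 0.08 and -0.04.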
